A study of Mus musculus with 5 samples.

Results

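A set of 8 enzymes that reduce or oxidise reactive carbonyls, or oxidise small thiols, was followed in 3T3-L1 cells as they became adipocytes with and without the polycation P-G3: Cbr1, Cbr2, Cbr3, Grhpr, Selenbp1, Aldh1a7, Aldh1a1 and Aldh2. They are 8 of the 32285 genes in the count matrices, and all 8 had molecules in every library. The set was chosen from measured values, because Cbr1, Cbr2 and Selenbp1 were among the genes with the largest ratios of P-G3 to untreated cells on day 6. The day 6 ratios below are therefore a description of why the genes were picked and support nothing further.

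3T3-L1 is an established mouse line of preadipocytes. It was held at confluence, induced with dexamethasone, insulin and isobutylmethylxanthine, and then kept in medium with insulin. P-G3, a positively charged PAMAM polymer, was present at 10 µg/mL from the day of induction. Single-cell RNA libraries were made from 5 groups: uninduced, untreated cells on day 0, induced cells without P-G3 on days 3 and 6, and induced cells with P-G3 on days 3 and 6. All groups are the same cell line, no vehicle or other polymer group was included here, and each group is 1 library. No difference between groups therefore has a replicate check, no test was made, and every interval covers counting error only.

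Carbonyl reductases are mostly short-chain dehydrogenases that use NADPH to turn ketones and aldehydes, such as quinones, prostaglandins and products of lipid peroxidation, into alcohols. Aldehyde dehydrogenases instead oxidise aldehydes to acids with NAD(P)+. Aldh1a1 acts on retinaldehyde, a precursor of retinoic acid, which restrains adipocyte differentiation, whereas its relative Aldh1a7 is not known as a retinaldehyde enzyme. The mitochondrial Aldh2 clears acetaldehyde and lipid aldehydes. Grhpr reduces glyoxylate and hydroxypyruvate, and Selenbp1 is a methanethiol oxidase that is abundant in mature adipocytes.

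Levels are unique molecular identifiers (UMIs, counted molecules) summed over the kept cells of a library and scaled to counts per 1000000 of that sum (CPM). Log2 ratios were taken after adding 1 CPM to both libraries, so those of low genes are too small, and folds are plain ratios of CPM. A gene was counted as higher or lower when the CPM differed at least 2-fold and reached 20 CPM in either library. Between 2468 and 3893 cells and between 88432894 and 179221992 UMIs were kept per library, and the limit that 0 molecules allows, 3 counts of the library, was 0.0167 to 0.0339 CPM. The day 6 libraries stand apart from the others, since 46.7% of barcodes were kept in the untreated and 62.0% in the P-G3 library, against at least 97.4% elsewhere. Pairs of libraries shared 1 to 6 cell barcodes. The adipocyte label was checked against markers. The summed level of 14 adipocyte markers was 176 CPM on day 0, 8665 (untreated) and 12888 CPM (P-G3) on day 3, and 33625 and 39545 CPM on day 6. The summed level of 14 preadipocyte markers went the other way with P-G3. It was 4591 CPM untreated against 2387 CPM with P-G3 on day 3, and 3275 against 1579 CPM on day 6. Gene by gene, 10 adipocyte markers had log2 ratios of P-G3 to untreated above 0 and 3 below on day 3. On day 6 they were split, 7 above 0 and 7 below, with a median of 0.07. All 14 preadipocyte markers were below 0 on day 6. Markers of macrophages, endothelium and hepatocytes summed to at most 5.97 CPM in any library, those of skeletal muscle to at most 32.8 CPM, and those of epithelium to 19.6 CPM on day 6 untreated and 28.9 CPM with P-G3.

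Cbr1 is the broad-specificity cytosolic carbonyl reductase. The gene lies at chr16:93605853-93610505 on the plus strand of GRCm38, and Cbr3 follows it on the same strand at chr16:93683215-93690990, 72709 bases further on. Cbr2, a mitochondrial tetrameric reductase best known from lung and adipocytes, lies apart at chr11:120729489-120732114 on the minus strand. The 250 bases before the RefSeq start of Cbr1 (chr16:93607587-93607836, plus strand) and of Cbr2 (chr11:120732022-120732271, minus strand) are shown because these genes had the largest ratios among the 8 with P-G3 on day 6. RefSeq entries on GRCm38.p6 were found for 7 of the 8 genes, with none for Aldh2.
Cbr1: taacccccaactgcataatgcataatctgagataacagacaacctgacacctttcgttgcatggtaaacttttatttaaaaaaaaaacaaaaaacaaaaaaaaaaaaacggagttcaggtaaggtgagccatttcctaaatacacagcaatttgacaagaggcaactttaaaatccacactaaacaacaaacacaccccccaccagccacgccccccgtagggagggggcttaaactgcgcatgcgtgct
Cbr2: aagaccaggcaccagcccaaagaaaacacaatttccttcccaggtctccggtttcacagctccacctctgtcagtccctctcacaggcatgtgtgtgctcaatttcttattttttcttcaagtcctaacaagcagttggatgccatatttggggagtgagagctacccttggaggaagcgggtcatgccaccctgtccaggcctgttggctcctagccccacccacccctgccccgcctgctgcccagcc
In all, 4 motifs were searched on both strands in these 250-base windows: the antioxidant response core TGACNNNGC, the C/EBP core TTGCNNAA, the nuclear receptor motif AGGTCA and the TATA box TATAAA. They are held by 10.2%, 9.56%, 14.0% and 12.4% of the 32851 mouse promoters in the table. Cbr1, Cbr2, Cbr3 and Grhpr held none of the 4, so their letters are all in lower case. Matches were found for 3 genes, Selenbp1 (given below), Aldh1a1 and Aldh1a7. Aldh1a1 held TTGCNNAA 13 bases before its first start, on the minus strand, and Aldh1a7 held TATAAA 244 bases before its start. The Cbr1 window lies inside the gene span given above, so bases before that span were not searched. The Cbr1 and Cbr2 windows were 51.4% identical after alignment. Transcripts of Cbr1 and Cbr3 were 70.0% identical and those of Cbr1 and Cbr2 52.9%.

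The level of Cbr1 was 40.4 CPM on day 0, 61.3 CPM on day 3 untreated, 96.8 CPM on day 3 with P-G3, 206 CPM on day 6 untreated and 512 CPM on day 6 with P-G3. It was thus higher at each later day, and higher with P-G3 at both days. Cbr2 followed the same order, with 15.5, 46.4, 74.5, 110 and 246 CPM in those libraries. Cbr3, an inducible reductase close to Cbr1 in sequence but narrower in activity, stood at 54.9, 72.9, 120, 214 and 264 CPM. The 3 reductases had the same order of libraries, but the step from untreated to P-G3 cells on day 6 was small for Cbr3. Cbr4, a mitochondrial relative that belongs to fatty acid synthesis and was not among the 8, stood at 15.9, 19.1, 21.7, 37.1 and 52.1 CPM.

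**Figure D1:**
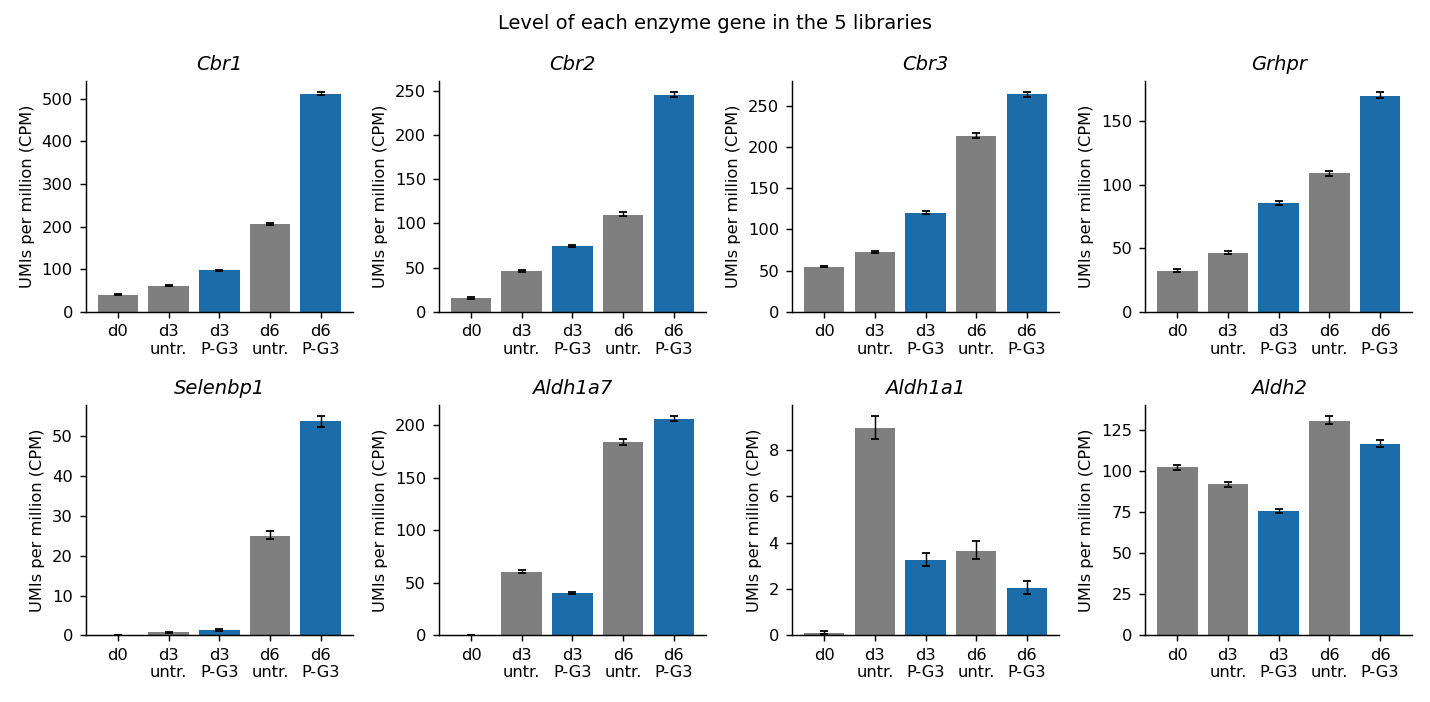
Level of each of the 8 genes in CPM (vertical axes, linear and different for each gene) in the 5 libraries, 1 library per group, with exact Poisson 95% intervals that cover counting error only. Cbr1 reached 512 CPM on day 6 with P-G3 against 206 CPM untreated, whereas Aldh1a1 was highest on day 3 untreated, at 8.96 CPM.

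Grhpr, at chr4:44981395-44990734 on the plus strand, had a level of 32.4 CPM on day 0. It was 46.3 CPM in untreated and 85.4 CPM in P-G3 cells of day 3, then 109 and 170 CPM on day 6. It shared the order of libraries seen for the carbonyl reductases, and of the 8 genes it had the largest P-G3 ratio on day 3.

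Selenbp1, at chr3:94933056-94944758 on the plus strand, was close to absent in the day 0 library. Its level was 0.0252 CPM on day 0, 0.816 CPM on day 3 untreated, 1.33 CPM on day 3 with P-G3, 25.1 CPM on day 6 untreated and 53.8 CPM on day 6 with P-G3. These rest on 4, 114, 239, 2219 and 5777 molecules. Selenbp2, its near-identical copy at chr3:94693556-94704413 on the same strand, had between 0 and 3 molecules per library. The transcripts were 98.5% identical, and 98.2% over the last 500 bases where this assay reads, so molecules from one copy can be lost or credited to the other and the levels of both are uncertain. The 2 promoters are printed because they differ although the transcripts hardly do. Selenbp1 is at chr3:94932833-94933082 and Selenbp2 at chr3:94693323-94693572, and capitals mark matches to the C/EBP core and the TATA box.
Selenbp1: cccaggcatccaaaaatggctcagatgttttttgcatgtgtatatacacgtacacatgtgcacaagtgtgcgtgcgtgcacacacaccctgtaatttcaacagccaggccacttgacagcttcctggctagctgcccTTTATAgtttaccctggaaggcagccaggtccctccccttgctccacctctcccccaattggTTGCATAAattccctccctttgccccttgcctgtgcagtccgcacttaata
Selenbp2: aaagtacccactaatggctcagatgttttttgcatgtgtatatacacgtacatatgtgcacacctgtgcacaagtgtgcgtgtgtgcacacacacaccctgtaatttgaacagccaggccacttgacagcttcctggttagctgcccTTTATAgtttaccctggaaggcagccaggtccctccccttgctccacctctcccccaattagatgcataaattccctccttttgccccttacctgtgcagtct
The windows were 93.7% identical over 238 aligned bases. The Selenbp1 window held TTGCNNAA on the plus strand with its first base 51 bases before the start, and TATAAA on the minus strand 113 bases before it. The Selenbp2 window held TATAAA alone, on the minus strand 103 bases before the start. A match describes the letters only, and no binding was measured.

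Aldh1a7 and Aldh1a1, neighbouring aldehyde dehydrogenases that arose by duplication, were both higher on day 3 than on day 0 and parted from day 3 to day 6. Aldh1a7, at chr19:20692953-20727562 on the minus strand, measured 0.189 CPM on day 0, where it rests on 30 molecules. It then measured 60.7 CPM in untreated and 40.6 CPM in P-G3 cells of day 3, and 184 and 206 CPM on day 6. Aldh1a1, at chr19:20492715-20643465 on the plus strand, measured 0.107 CPM on day 0 (17 molecules), 8.96 and 3.27 CPM on day 3, then 3.66 and 2.06 CPM on day 6. It was highest on day 3 untreated and lower with P-G3 at both days, whereas Aldh1a7 was highest on day 6. The transcripts were 89.1% identical, and 82.3% over the last 500 bases, and Aldh1a1 overlaps C730002L08Rik and Gm6684 on the other strand. Some of their molecules may therefore be credited to the wrong gene. The last 100 bases before the start, at chr19:20601868-20601967 on the plus strand for the second RefSeq start of Aldh1a1 and at chr19:20727557-20727656 on the minus strand for Aldh1a7, are printed with the differing bases in capitals. They show how alike the start regions of the 2 genes are at this pair of starts. The window before the first RefSeq start of Aldh1a1 was 53.4% identical to that of Aldh1a7 over 232 aligned bases.
Aldh1a1: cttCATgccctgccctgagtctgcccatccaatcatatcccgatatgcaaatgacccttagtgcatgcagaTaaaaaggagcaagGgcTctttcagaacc
Aldh1a7: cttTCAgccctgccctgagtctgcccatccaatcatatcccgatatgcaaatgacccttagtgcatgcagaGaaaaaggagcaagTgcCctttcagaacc
The 2 sequences were 94.0% identical, with 6 differing bases. Over the whole windows of this pair identity was 73.6% of 235 aligned bases. Aldh2, at chr5:121566027-121593824 on the minus strand, was the most even of the 8, with 103 CPM on day 0, 92.2 CPM (untreated) and 75.7 CPM (P-G3) on day 3, then 131 and 117 CPM on day 6. Gm42879 overlaps it on the other strand. The retinaldehyde dehydrogenases Aldh1a2 and Aldh1a3 contributed little, with no molecule of Aldh1a2 in any library and Aldh1a3 between 0.140 and 0.285 CPM.

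Between day 0 and day 3 without P-G3, which asks how the enzymes differ after induction, Aldh1a7, Aldh1a1 and Selenbp1 had the largest folds of the 8, each from a very low day 0 level. Aldh1a7 was 321-fold higher (log2 8.33, interval 7.81 to 8.90), rank 9 of 5716 genes by log2 ratio (5.70). Aldh1a1 was 83.7-fold higher (log2 6.39, interval 5.70 to 7.17) at a low level, and Selenbp1 32.4-fold (log2 5.02, interval 3.62 to 6.92) from 4 molecules. The related Aldh1a3 was at 0.728 of its day 0 level. Cbr2 was 2.98-fold higher, with a log2 ratio of 1.52, whereas Cbr1, Cbr3 and Grhpr had log2 ratios of 0.59, 0.40 and 0.50 and Aldh2 of -0.15. Of the 8 genes, 6 reached 20 CPM in either library. Of these, 2 were at least 2-fold higher, Cbr2 and Aldh1a7, against 6.09% of all genes. Both reached 20 CPM only on day 3, the day on which they were higher. None was at least 2-fold lower, against 3.80% of all genes.

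From day 3 to day 6 without P-G3, 7 genes passed the 20 CPM minimum and 6 of them were at least 2-fold higher, against 7.82% of all genes, and none was lower, against 5.05%. Selenbp1 was 30.8-fold higher, rank 10 of 5936 genes by log2 ratio (3.85), and it reached 20 CPM only on day 6. Cbr1 was 3.36-fold, Aldh1a7 3.04-fold and Cbr2 2.38-fold higher. Cbr3 and Grhpr had log2 ratios of 1.54 and 1.22 and Aldh2 of 0.51. Aldh1a1, under the 20 CPM needed to be counted, was at 0.409 of its day 3 level, a log2 ratio of -1.10.

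From day 3 to day 6 with P-G3, 5 of 7 genes were at least 2-fold higher, against 7.02% of all genes, and none was lower, against 5.99%. Both day 6 libraries entered the ratio by which the genes were chosen. Nothing is therefore read from this count, nor from the count without P-G3 above. Selenbp1 was 40.3-fold higher, rank 3 of 5145 genes by log2 ratio (4.55), with Cbr1 5.29-fold, Aldh1a7 5.08-fold and Cbr2 3.30-fold higher. Cbr3, Grhpr and Aldh2 had log2 ratios of 1.13, 0.99 and 0.62, and Aldh1a1 of -0.48. The values without and with P-G3 share no library, and the difference between the steps was not tested.

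On day 3, which asks what P-G3 had changed early in differentiation, the reductases were higher and Aldh1a7 lower with P-G3, all by less than 2-fold among genes that reached 20 CPM. Grhpr was 1.84-fold higher (log2 0.88, interval 0.84 to 0.93), rank 13 of 5439 genes by log2 ratio (0.87). Cbr3 was 1.65-fold, Cbr2 1.61-fold and Cbr1 1.58-fold higher, and Selenbp1 1.63-fold at about 1 CPM (log2 interval 0.38 to 1.04). Aldh1a7 was at 0.669 of the untreated level (log2 interval -0.62 to -0.53) and Aldh1a1 at 0.365 (log2 -1.46, interval -1.60 to -1.31). Aldh2 had a log2 ratio of -0.28, which was 0.03 with the transcript-length trend described below removed. None of the 6 genes that reached 20 CPM was at least 2-fold higher, against 0.129% of all genes, and none lower, against 2.15%.

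On day 6, Cbr1 was 2.49-fold higher with P-G3 (log2 1.31, interval 1.29 to 1.34), Cbr2 2.23-fold (log2 1.15, interval 1.12 to 1.19) and Selenbp1 2.14-fold (log2 1.10, interval 1.03 to 1.17). These are the values by which the set was chosen. They held ranks 3, 4 and 6 of 5564 genes by log2 ratio, behind Depp1 (2.01) and Ly6c1 (1.56), with Fcf1 (1.07) between Cbr2 and Selenbp1, and Ly6a (1.05) and Hsd11b1 (0.98) just after. Grhpr was 1.56-fold, Cbr3 1.23-fold and Aldh1a7 1.12-fold higher, Aldh2 was at 0.889 and Aldh1a1 at 0.561 (log2 interval -1.09 to -0.58) of the untreated level. The 3 genes at least 2-fold higher stand beside 0.126% of all genes, and none was lower, beside 3.43%.

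The P-G3 ratios move with transcript length across all genes. The Spearman correlation between length and log2 ratio was -0.60 on day 3 and -0.62 on day 6, over genes of 2 libraries each, and the median log2 ratio went from 0.16 in the bin of shortest transcripts to -0.72 in the longest on day 6. With the bin median subtracted, the day 6 log2 ratios of Cbr1, Cbr2 and Selenbp1 were 1.17, 0.96 and 1.14, so Cbr2 was then under 2-fold. Those of Cbr3, Grhpr, Aldh1a7 and Aldh1a1 were 0.11, 0.50, 0.31 and -0.36. The longer Cbr4, not a member, had 0.48 as counted and 0.97 after this step. Aldh2 turned to 0.28, and it was also above 0 under TMM scaling (0.17) and median-of-ratios scaling (0.22), so its direction on day 6 is not settled. The all-gene median log2 ratio on day 6 was -0.34 with total-count scaling, -0.02 with TMM and 0.02 with median-of-ratios, and the day 3 values were -0.23, 0.00 and 0.03. The members with at least 5 CPM had median log2 ratios of 0.64 on day 6 and 0.65 on day 3 on the total-count scale. The part of transcript length in the results was not tested.

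**Figure D2:**
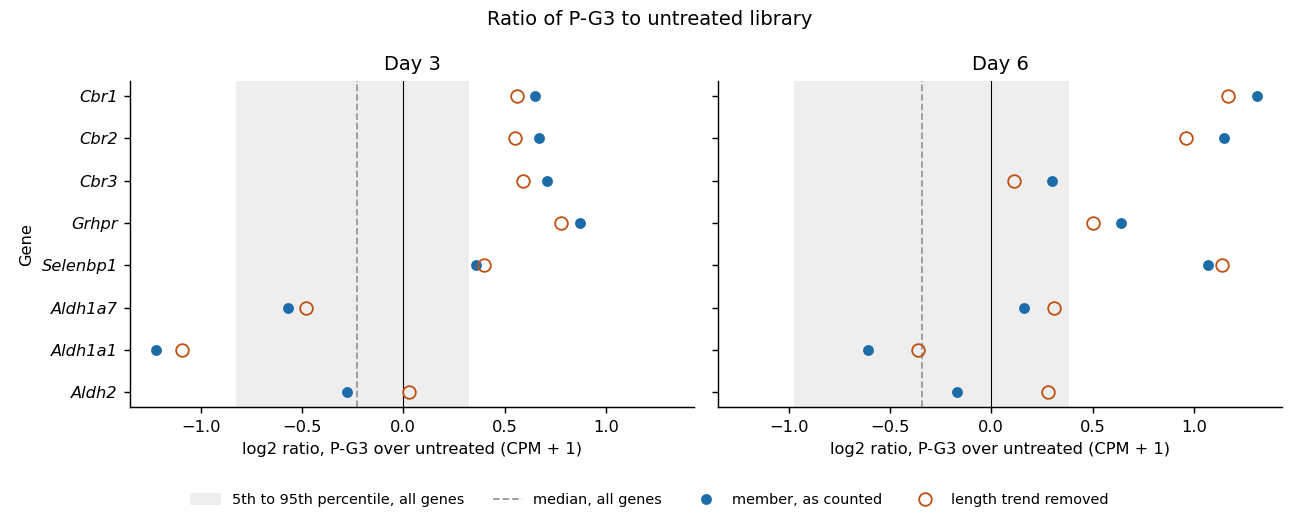
Log2 ratio of P-G3 to untreated cells for each of the 8 genes on day 3 and on day 6 (filled points, log2((CPM + 1) / (CPM + 1))). Open points show the same with the length trend removed. The grey band is the range from the 5th to the 95th percentile of all genes with at least 5 CPM, and the dashed line is their median. On day 6 with P-G3, Cbr1, Cbr2 and Selenbp1 lie at 1.31, 1.15 and 1.07, above the band's upper edge at 0.38.

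Within day 6 the reductases differed in how far they went with adipocyte state. Cells with at least 10000 UMIs, 1541 untreated and 1881 with P-G3, were thinned to 10000 UMIs each and divided by their Adipoq count, Adipoq being the adipocyte hormone adiponectin. In untreated cells Cbr1 averaged 0.640 UMIs per cell where Adipoq was 0, 1.70 at 1 to 3 Adipoq UMIs, 2.85 at 4 to 7 and 3.06 at 8 or more. With P-G3 it averaged 1.21, 2.77, 4.46 and 7.38 UMIs. Cbr1 thus went up along the bins in both libraries and was higher with P-G3 in each bin. Cbr2 moved less along the bins than Cbr1, at 0.984, 1.07, 1.30 and 1.14 UMIs untreated and 2.14, 2.18, 2.45 and 2.69 UMIs with P-G3. With P-G3 the intervals of its lowest bin (2.01 to 2.28) and highest bin (2.58 to 2.81) lay apart. Untreated, those of the same bins overlapped (0.903 to 1.07 and 1.03 to 1.27). Cbr2 was higher with P-G3 also in cells with no Adipoq UMI. Both genes were chosen by their day 6 ratio in these same libraries, so their direction with P-G3 in the bins supports nothing further.

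Cbr3 went from 1.10 to 2.62 UMIs between the lowest and the highest bin untreated, and from 1.52 to 3.01 with P-G3. Grhpr went from 0.747 to 1.27 UMIs and from 1.07 to 1.91. Aldh1a7 averaged 0.888, 2.19, 2.45 and 2.38 UMIs untreated and 0.825, 1.79, 2.52 and 2.57 with P-G3. It was lowest where Adipoq was 0, and the intervals of the libraries lay apart at 1 to 3 Adipoq UMIs, at 2.04 to 2.35 untreated and 1.65 to 1.93 with P-G3. Selenbp1 averaged 0.0542, 0.324, 0.313 and 0.346 UMIs untreated and 0.120, 0.310, 0.684 and 0.721 with P-G3, and its P-G3 value was above the untreated one in 3 of the 4 bins. Aldh1a1 went down along the bins, from 0.0561 to 0.00997 UMIs untreated and from 0.0431 to 0.0146 with P-G3. Aldh2 averaged 1.27 UMIs untreated and 0.834 with P-G3 where Adipoq was 0, 1.35 and 1.08 UMIs in the next bin and 1.27 and 1.24 UMIs at 4 to 7. In the highest bin its interval was 1.37 to 1.65 UMIs untreated and 1.16 to 1.32 with P-G3. P-G3 cells with 8 or more Adipoq UMIs made up 756 of 1881 cells against 301 of 1541 untreated cells, and cells under 10000 UMIs, 37.6% and 47.0% of those kept, were left out.

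**Figure D3:**
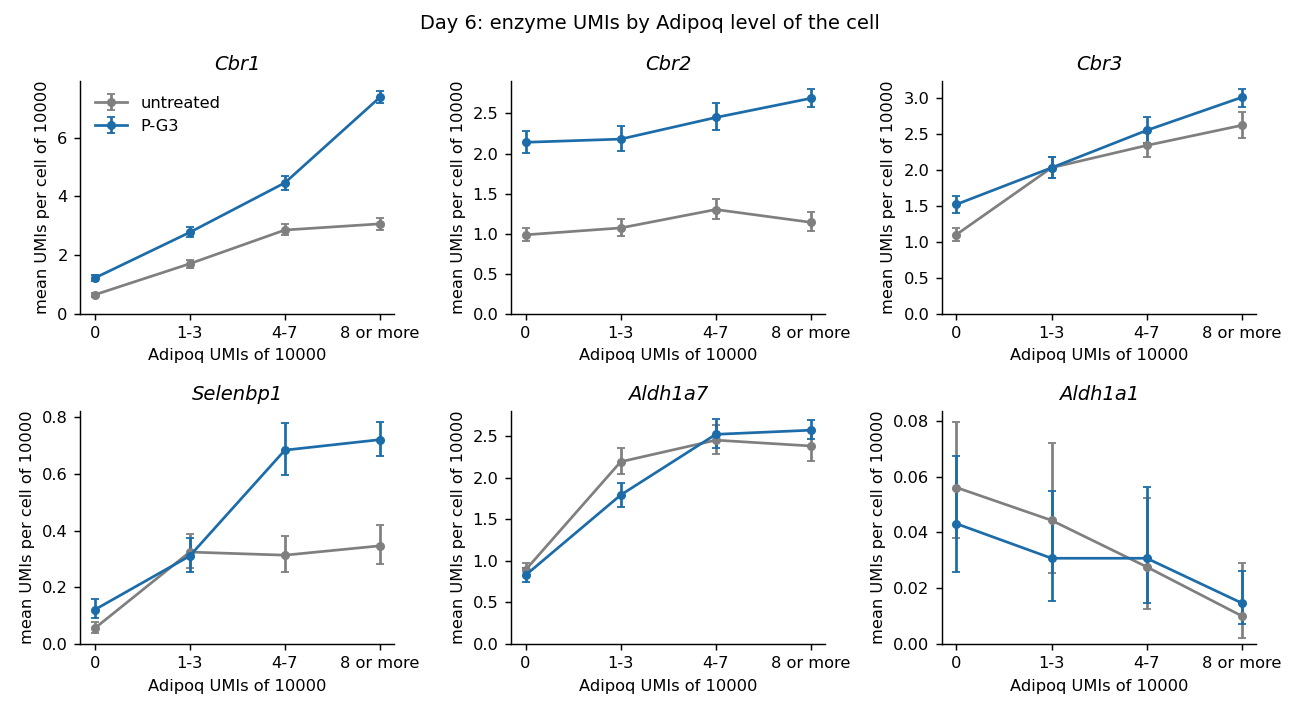
Mean UMIs per day 6 cell, thinned to 10000 UMIs (vertical axes), for 6 of the genes against the cell's Adipoq UMIs (horizontal axes, 4 bins), untreated and with P-G3, with Poisson 95% intervals that cover counting error only. Cbr1 goes from 1.21 to 7.38 UMIs along the bins with P-G3, whereas Cbr2 lies between 2.14 and 2.69.

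Across single cells of day 6, the Spearman correlation of Cbr1 with Adipoq was 0.41 over 1541 untreated cells and 0.53 over 1881 cells with P-G3. That of Cbr2 with Adipoq was 0.11 and 0.12, and that of Cbr1 with Cbr2 0.10 and 0.07, values too weak in sparse counts to be read. Aldh1a7 with Adipoq gave 0.34 and 0.35. All these cells share a library and a thinned depth. Counts of Cbr1 varied more from cell to cell than counting alone gives, with a variance of 7.24 times the mean on day 6 with P-G3 and 4.86 times untreated, against 1.01 times on day 0.

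Thinned to 1000 UMIs per cell, Cbr1 was seen in 3.93% of cells on day 0, 5.60% (untreated) and 8.16% (P-G3) on day 3, then 19.4% and 31.4% on day 6. Unthinned, the day 6 shares were 71.4% and 76.0%, at median depths of 34215 and 16658 UMIs per cell. Selenbp1 was seen in 3.28% and 5.76% of thinned cells on day 6. In the day 0 cells, at a median of 47504 UMIs and with next to no adipocyte transcripts, thinning left no molecule of Selenbp1 or Aldh1a7. Unthinned, Selenbp1 was seen in 0.125% of day 0 cells (interval 0.0340% to 0.319%) and Aldh1a7 in 0.903%.

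Cells were also grouped by clustering without the 8 genes or the related families. Values are compared within the same numbered cluster of day 6. Cluster 2, adipocyte-like by its markers, held 704 untreated and 842 P-G3 cells, cluster 10, also adipocyte-like, 264 and 544, and cluster 11, preadipocyte-like, 420 and 357. In cluster 2, Cbr1 had 275 CPM in untreated and 723 CPM in P-G3 cells (log2 ratio 1.39), and in cluster 10 it had 134 and 352 CPM (1.38). In cluster 11 it had 54.7 and 93.9 CPM (0.77). Among these clusters Cbr1 was thus higher in the adipocyte-like ones, and it was higher with P-G3 in each. Clusters without the adipocyte label reached such levels too. The dividing-like cluster 12 had 140 and 303 CPM, and the unnamed cluster 4, of few UMIs, had 280 and 418 CPM. For Cbr1, Cbr2 and Selenbp1 the direction with P-G3 repeats the library values by which they were chosen.

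Cbr2 showed no such grading with P-G3. It stood at 125 and 260 CPM in cluster 2 (log2 ratio 1.06), 117 and 252 CPM in cluster 10 (1.10) and 86.2 and 246 CPM in cluster 11 (1.51), so that the 3 clusters reached nearly the same level with P-G3. In the dividing-like cluster 12, of 68 and 54 cells, it stood at 62.9 and 181 CPM (1.51). Free RNA could carry adipocyte transcripts into cluster 11, and its part was not tested. Adipoq there was 23.1 and 35.9 CPM against 673 and 1255 CPM in cluster 2. Col1a1, a collagen of preadipocytes, was 1954 CPM in untreated and 955 CPM in P-G3 cells of cluster 11.

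Selenbp1 stood at 35.7 and 85.0 CPM in cluster 2 (1.23), 16.6 and 23.6 CPM in cluster 10 (0.48) and 2.53 and 6.32 CPM in cluster 11 (1.05). Grhpr was higher with P-G3 in all 3 clusters, with log2 ratios of 0.70, 0.51 and 0.32, and so was Cbr3, with 0.22, 0.31 and 0.65. Aldh1a7 was at 252 and 266 CPM in cluster 2 and at 50.5 and 45.9 CPM in cluster 11, so it was graded by cluster with little difference between the libraries. Aldh1a1 was lower with P-G3 in cluster 11, at 6.59 and 2.20 CPM (-1.25). Aldh2 was 142 and 150 CPM in cluster 2, 108 and 79.0 CPM in cluster 10, and 120 and 69.5 CPM in cluster 11. The median log2 ratio of all genes in clusters 2, 10 and 11 was -0.23, -0.28 and -0.37.

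**Figure D4:**
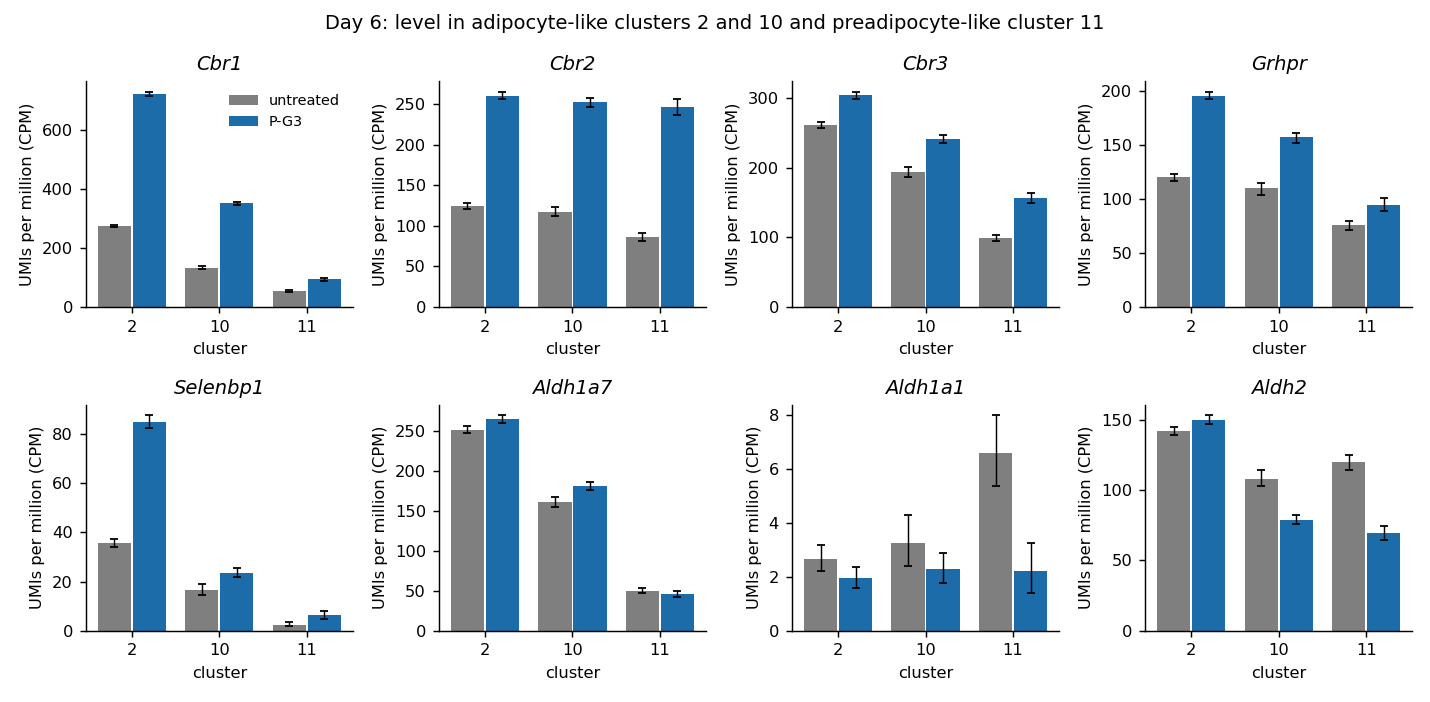
Level in CPM (vertical axes, from 0) of members in day 6 clusters 2 and 10 (adipocyte-like) and 11 (preadipocyte-like), untreated and with P-G3, 1 library each, with Poisson 95% intervals that cover counting error only. Cbr1 differs between clusters 2 and 11 with P-G3, at 723 and 93.9 CPM, whereas Cbr2 stands at 260 and 246 CPM.

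Barcodes with few molecules were compared too. Cluster 8, with a median of 3068 UMIs, carried adipocyte markers but was led by AY036118 and Lars2, and its 326 untreated and 705 P-G3 cells had Cbr1 at 559 and 632 CPM (log2 ratio 0.18), Cbr2 at 172 and 220 CPM (0.36) and Selenbp1 at 83.3 and 96.3 CPM (0.21). Cbr3 was lower with P-G3 there, at 362 and 309 CPM (-0.23). Cluster 4, unnamed with a median of 1349 UMIs, had Cbr1 at 280 and 418 CPM (0.57) and Cbr2 at 107 and 204 CPM (0.92). Cbr3 was lower with P-G3 in cluster 4 as well, at 228 and 183 CPM. The log2 ratios of Cbr1 in clusters 8 and 4 were thus smaller than in clusters 2 and 10. Cluster 15, unnamed with a median of 1454 UMIs and 80 and 67 cells, had Cbr2 at 22.8 and 191 CPM (3.02, interval 1.55 to 5.05), resting on 4 and 27 molecules, and Cbr1 at 148 and 198 CPM (0.42, interval -0.40 to 1.25). With each cell weighted equally instead of by its molecules, the day 6 log2 ratios of Cbr1, Cbr2 and Selenbp1 were 0.95, 1.00 and 0.76. Over cells of 30000 to 60000 UMIs they were 1.42, 1.12 and 1.07.

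On day 3 the same numbered clusters were compared. In the preadipocyte-like cluster 0, of 1392 untreated and 431 P-G3 cells, Cbr1 was 43.7 and 47.0 CPM, Cbr2 44.2 and 53.0 CPM, and Grhpr 38.8 and 59.0 CPM (log2 ratio 0.59). In cluster 3, unnamed, of 628 and 770 cells, Cbr1 was 91.5 and 131 CPM, Cbr3 114 and 166 CPM, and Grhpr 62.5 and 111 CPM (0.81). Cbr2 in cluster 5, also unnamed, of 231 and 1110 cells, was 56.8 and 105 CPM (0.87). The lower Aldh1a7 with P-G3 on day 3 was seen in cluster 0, at 69.3 and 46.6 CPM (-0.56), and in cluster 3, at 76.5 and 47.2 CPM (-0.69), but in cluster 5 it was 35.6 and 39.3 CPM (0.14). Aldh1a1 was lower in cluster 0 (-0.33) and cluster 3 (-1.10). The preadipocyte-like share of cells differed between the libraries, at 39.9% (untreated) and 11.3% (P-G3) on day 3, with 18.2% and 10.3% on day 6. The part of these shares in the library-wide ratios was not tested, and the values within clusters stand beside them.

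The families around the 8 genes were read from 9 lists, by members with at least 5 CPM. On day 6 with P-G3 against untreated, 27 of 30 other short-chain dehydrogenases had that level, 15 above 0 and 12 below, with a median log2 ratio of 0.06. All genes had 2257 above and 6880 below and a median of -0.34. None of these dehydrogenases was counted as 2-fold higher, beside 0.126% of all genes. Hsd11b1, which regenerates active glucocorticoid, was nearest to the limit, at 121 and 239 CPM (0.98), followed by Dcxr, which reduces dicarbonyls and xylulose, at 75.7 and 123 CPM (0.69), and Pecr (0.51). On day 3 Hsd11b1 stood at 22.1 and 49.4 CPM (1.12). It was the only gene of that list at least 2-fold higher, beside 0.129% of all genes.

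Other aldehyde dehydrogenases lay with the bulk of all genes. On day 6, 2 of the 11 measured were above 0 and 9 below, with a median of -0.34, the same as that of all genes. Aldh1l2 (-0.64) and Aldh4a1 (-0.60) were the lowest, and Aldh6a1, of valine breakdown, was 158 and 113 CPM (-0.48). The 6 aldo-keto reductases had a median of 0.23, with Akr7a5, which reduces succinic semialdehyde, at 113 and 165 CPM (0.54). The 10 alcohol dehydrogenases, glyoxalases and alkenal reductases had a median of 0.04, from Adh7 (11.5 and 4.17 CPM, -1.27) to Hagh (0.62) and Adh5 (0.60). The 13 glutathione transferases had a median of 0.20, with Mgst3 at 940 and 1462 CPM (0.64) and Gstk1 at 0.59. All list ratios with P-G3 are as counted, without the length trend removed. Among the genes named in this paragraph, those below 0 have transcripts of 3382 to 6027 bases. Those above 0 have 930 to 1604 bases. The part of length in the differences between families was not tested.

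Classical targets of NRF2, the factor that induces many carbonyl-detoxifying genes, had 7 of 20 above 0 and 13 below on day 6, with a median of -0.26, slightly above the -0.34 of all genes. Txnrd1 (-0.88), Gsr (-0.85), Srxn1 (-0.81) and Gclc (-0.73), which renew reduced thioredoxin, peroxiredoxin and glutathione, were lower, whereas Taldo1 (0.70) and Tkt (0.67) of the pentose phosphate pathway were higher. Nqo1 and Hmox1 were at -0.27 and -0.41. The 6 measured genes of retinoid handling had a median of -0.43, with the retinoic acid receptor Rarg at -0.90. The 3 measured genes of glyoxylate metabolism were above 0 (Ldhb 0.49, Ldha 0.34, Pgp 0.30), and of 6 genes of sulfide and thiol oxidation 4 were above 0, with the sulfurtransferase Tst at 63.2 and 98.5 CPM (0.63). None of these lists had a gene counted as 2-fold different on day 6, beside 0.126% of all genes higher and 3.43% lower. Lists this short hold few or no such genes at those shares. Ratios below 0 by less than the shift of all genes turn with the scaling.

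Without P-G3, from day 3 to day 6, 3 of the 6 other aldehyde dehydrogenases that reached 20 CPM were at least 2-fold higher, beside 7.82% of all genes: Aldh1l2 from 4.74 to 32.6 CPM, Aldh6a1 from 38.5 to 158 CPM and Aldh18a1, of proline synthesis, from 18.0 to 61.3 CPM. Of the 18 other short-chain dehydrogenases that reached 20 CPM, 5 were at least 2-fold higher, with Dhrs3 (2.44), Hsd11b1 (2.39) and Dhrs9 (2.28) having the largest log2 ratios. Aldh1l2, Aldh18a1, Dhrs3 and Dhrs9 reached 20 CPM only on day 6, the day on which they were higher. These list counts therefore support nothing further. From day 0 to day 3, Aldh6a1 went from 2.14 to 38.5 CPM and Hsd11b1 from 0.901 to 22.1 CPM, whereas Gsto1 went from 402 to 166 CPM (-1.27).

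The genes nearest to each of the 8 were found by the distance between centred log2(CPM + 1) values over the 5 libraries, a description over 5 points. Nearest to Cbr1 were Hibch (0.74), Hagh (0.76) and Phyh (0.80), enzymes of valine, methylglyoxal and branched fatty acid breakdown. Cbr2 had Pex16 (0.40), Mdh1 (0.63) and Pdhb (0.65). Cbr3 had the lipid droplet coat gene Plin2 (0.25) and Pemt (0.30) among its nearest, and lay at 0.35 from Grhpr, which had Ndufa6 (0.29) and Psma1 (0.34) among its nearest. Selenbp1 had Ffar2 (0.69), Cox7a1 (0.70) and Gpt (0.82), and Aldh1a7 had Wfdc21 (0.73), Acsl1 (0.73) and Plin1 (0.81). Aldh1a1 had Pik3r1 (0.46), Zhx3 (0.47) and Errfi1 (0.59), and Aldh2 had Dynll2 (0.09), Tvp23b (0.11) and Dynlt3 (0.13).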

How the data were processed

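The submitters' processing notes name GRCm38 and Cell Ranger 3.1.0, while the deposited matrix headers name 5.0.1, so the version is uncertain. The labels give the Chromium 3' v2 protocol. The deposited values are UMI counts per gene and barcode, not normalized by the authors. Barcodes with at least 500 genes and at most 20% mitochondrial UMIs were kept here, and no doublet caller was used. Cells were clustered with 2000 variable genes, 30 components, 20 neighbours and Leiden resolution 1, without the 8 genes and related lists. Clusters of few UMIs stayed unnamed unless their markers led. Intervals are exact at 95%: Poisson for levels, conditional binomial for ratios, Clopper-Pearson for shares. TMM came from edgeR 4.0.16 and median-of-ratios factors from DESeq2 1.42.0, for scaling only. Lengths and positions came from GENCODE vM21 and promoters from RefSeq. Ratios were tested on simulated data. The members, lists and alternatives were chosen with earlier results of these data known. Named genes are the members, Selenbp2, Cbr4, Aldh1a2 and Aldh1a3, 2 to 4 genes of each list with the largest ratios, and the 3 nearest genes of each member, of which a few are not reported here. Nqo1, Hmox1, Ldha, Pgp, Depp1, Ly6c1, Fcf1 and Ly6a were named after their values were seen.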

Additional observations from a re-analysis of the deposited data

Results flagged for a closer look

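Summed over whole libraries, Aldh1a7 went opposite ways with P-G3 on the 2 days. Its log2 ratio to untreated cells was -0.57 on day 3 and 0.16 on day 6, with 1 library on each side. It was below 0 on day 3 in all 12 settings (-0.68 to -0.30) and above 0 on day 6 in all 12 (0.02 to 0.55). The settings reuse the same libraries. Within day 6 the direction was mixed. It was lower with P-G3 at 1 to 3 Adipoq UMIs (2.19 and 1.79 UMIs) and at 0 (0.888 and 0.825), but higher in the bins above. It was lower in clusters 4 (231 and 178 CPM) and 11 (50.5 and 45.9 CPM), but higher in clusters 2 (252 and 266 CPM) and 10 (162 and 181 CPM). The difference between the days was not tested.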

How the results depend on the processing

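Of 110 counts of members under the alternatives, 104 stayed within 1.5 times the main count. With genes from 5 CPM, 1 member, Aldh1a1, was at least 2-fold lower from day 3 to day 6 untreated, and 1, again Aldh1a1, lower with P-G3 on day 3, against 0 for each. For P-G3 on day 3, members counted as higher went from 0 to 1 with TMM scaling, 1 with median-of-ratios scaling and 4 at 1.5-fold. For P-G3 on day 6 they went from 3 to 1 with each cell weighted equally. Member counts and medians were scored only as same or moved, so a reversed direction could not show there. Of 440 member ratios, 265 moved by less than the distance from the middle of their counting interval to its end. Aldh2 turned sign as given above. Scaling changed the split of all genes, from 7 higher and 117 lower on day 3 to 26 and 41 with TMM, 27 and 35 with median-of-ratios, and 9 and 30 with length removed. On day 6 it went from 7 and 191 to 56 and 37, 81 and 32, and 26 and 28. No paired analysis was possible because each group has 1 library. Depth limits Aldh1a1 and the day 0 levels of Selenbp1 and Aldh1a7.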
